A study of Mus musculus with 17 samples.

Results

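CD8 T cells activated by dendritic cells into effector cells were compared with naive CD8 T cells. Both kinds of cell were OT-I cells, which carry 1 transgenic T-cell receptor for a peptide of ovalbumin, on a C57Bl/6 background, from mice given as 2 to 6 months old. Samples were chosen by their titles: 5 arrays of effector cells (called Teff in the labels) and 5 of naive cells, which are 10 of the 17 arrays of the series. The labels give the spleen as the source of the naive cells and a coculture with splenic dendritic cells (DC) as that of Teff, except that the label of Teff 8 names the spleen. Teff 8 was grouped by its title. By these labels Teff differed from naive cells in culture as well as in activation. For every difference below, these 2 cannot be told apart. The other 7 arrays were 4 of Tpm, OT-I cells primed on liver sinusoidal endothelial cells (LSEC), and 3 of memory OT-I cells, taken from the spleen 3 months after infection with Listeria monocytogenes carrying ovalbumin. They entered the same fit, and Teff was set against them only to show which differences from naive cells also held there. The sources used here do not give the length of coculture, the antigen dose or any added cytokines. Arrays are named by group and sample number. The labels do not state whether arrays within a group stem from different mice or cultures. The p-values therefore measure the spread between these samples, which may be partly technical.

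A naive CD8 T cell is a small resting cell that circulates through spleen and lymph nodes under a program of quiescence genes. When a dendritic cell shows it a peptide on MHC class I together with co-stimulation, the cell grows, switches its metabolism to aerobic glycolysis and biosynthesis, divides many times and acquires the means to kill and to secrete cytokines. Receptors for interleukin 2, co-stimulatory receptors of the tumour necrosis factor family and inhibitory receptors appear on its surface during this change.

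RNA was measured on Illumina mouse arrays with 45281 probes, 1 array per sample. After background correction and normalization, 10619 genes were tested. All levels below are log2 of the normalized intensity, and a difference of 1 is a 2-fold change; the offset added before the log understates changes of dim genes. Calls needed both an adjusted p below 0.05 and a change of at least 1 in either direction. The 10 arrays had mean signals from 227 to 471 and between 7817 and 9089 genes above background, and the median gene had a spread of 0.278 (SD, n = 5) over naive and 0.247 (SD, n = 5) over Teff arrays. The first principal component of these arrays, with 76% of their variance, placed the naive arrays between -58.5 and -54.2 and the Teff arrays between 52.3 and 63.7. The second, with 8.09%, was negative on naive 12, naive 13, Teff 16 and Teff 17 and positive on the other 6. Xist was low and the Y-linked gene Eif2s3y high (a male pattern) on naive 13 and Teff 17, and the reverse held on the other 8. Of the CD8 T-cell markers, 6 of 8 were measured; Cd8b1, Cd3d, Cd3e, Cd3g, Cd2 and Thy1 were above background on all 10 arrays, and of these Cd2 alone was called, lower in Teff by 1.36.

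Compared with naive cells, 1414 genes (13.3%) rose and 1116 (10.5%) fell in Teff, and the median gene differed by 0.002. These shares of all genes are the background for every list count below. At an adjusted p under 0.05 with no minimum difference the counts were 2429 and 2119. The naive and Teff arrays did not overlap for 4027 of the 10619 genes tested, 2389 of them called, so groups without overlap were common. The rises reached further than the falls: 515 genes rose and 253 fell by at least 4-fold, and 65 rose and 20 fell by at least 16-fold. On naive arrays 188 of the higher genes were not above background on any of the 5, and 64 of the lower genes were not above background on any of the 5 Teff arrays. Every called gene kept its direction in both the arrays numbered 1 to 11 (3 against 3) and those numbered 12 to 17 (2 against 2). The calls came from these same arrays, so this match was largely set beforehand and is no replication. In both parts, 1227 of the rises and 903 of the falls reached 2-fold. Without background correction the counts were 780 and 609. Of the genes named here, Cd74, H2-Ab1, Insig1, Lat, Mvk, Ndufv2, Nhp2, Psmb8, Rrp9, Siglech, Stat3 and Wdr43 lost their call when at least 1 of the 10 arrays was left out. Of 107 called genes named here that had further probes above background, 98 had all of them in the same direction, 87 had one that also moved by 2-fold that way and 61 had one that differed by over 1. Among the genes with no further probe past 2-fold were Il6ra (-0.75 and -0.57), Btbd11 (-0.83 and -0.65), Cd69 (-0.89), Gbp7 (-0.94), Hars (-0.15), Fads2 (0.6) and Ndufb6 (0.61), and other such values stand beside their genes.

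**Figure D1:**
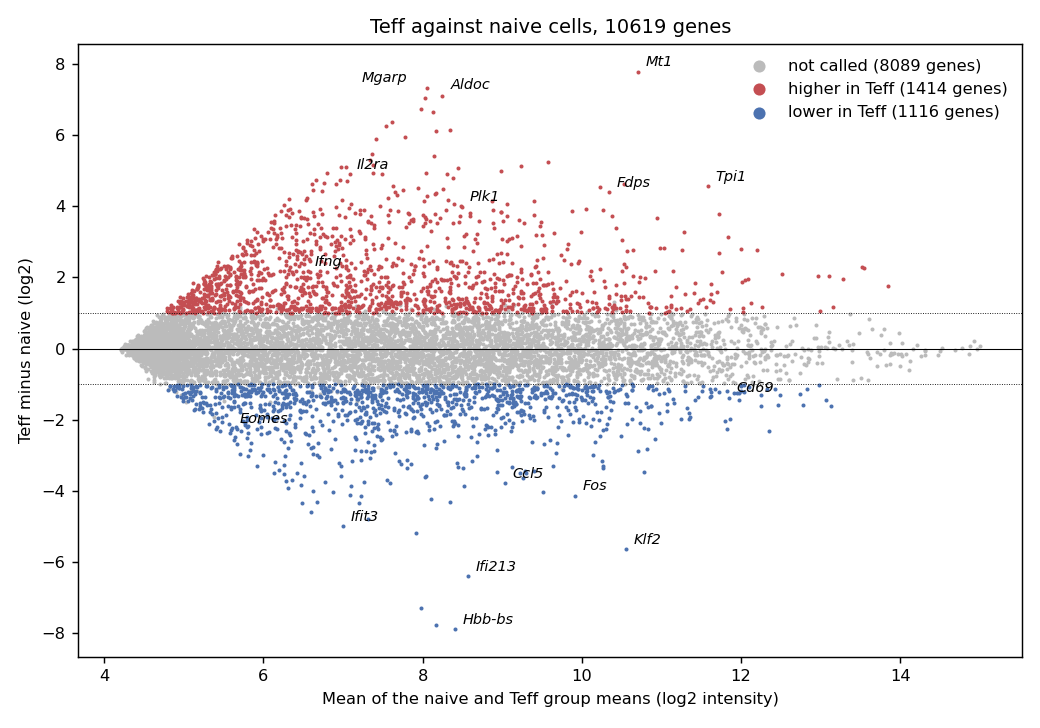
Difference of Teff minus naive (vertical axis, log2) against the mean of both group means (horizontal axis, log2 intensity), 1 point per gene. The 1414 genes called higher are red, the 1116 called lower blue and the rest grey, and dotted lines mark 2-fold; Mt1 lies highest at 7.78 and Hbb-bs lowest at -7.88.

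The largest rise among genes above background on at least 1 array of each group was that of Mt1, a metallothionein that binds zinc and other metals. Mt1 read 7.19, 6.97, 7.83, 5.86 and 6.23 on naive 1, 2, 11, 12 and 13, and 14.58, 14.39, 14.7, 14.58 and 14.74 on Teff 6, 8, 10, 16 and 17. The groups lay far apart, and the difference was 7.78 (standard error 0.53, adjusted p = 2.84e-09). Among the next were Tubb6, a beta tubulin, with a rise of 6.65, and Kit, the receptor for stem cell factor, with 6.15; a second probe of Kit gave 1.8. Gcat, which breaks down threonine to glycine, rose by 5.41, and Cables1, which binds cyclin-dependent kinases, by 5.47. Several genes were not above background on any naive array, so that only a lower limit of their change can be given. It is written as at least N-fold, the mean of the brighter group over the mean of the lowest values measurable on the dimmer arrays. The limit holds for the probe used, and further probes of the same gene can show less. Some genes given with a difference were also at background on most naive arrays, so its size is uncertain. Asns, Vegfa and Cables1 were above background on 1 naive array, and Aldoc, Lag3, Kit and Tnfrsf9 on 2. Tg, known as the thyroid hormone precursor thyroglobulin, was at least 63.4-fold higher in Teff, Zbtb32, a zinc finger repressor of activated lymphocytes, at least 58.4-fold and Nrn1, a membrane-anchored protein named for neurites, at least 46.5-fold. Sccpdh was at least 27.5-fold, Serpinf1 at least 26.3-fold and Dmwd at least 21.9-fold higher. Second probes gave differences of 1.72 for Zbtb32 and 3.11 for Dmwd. A second probe of Serpinf1, which codes for the secreted pigment epithelium-derived factor, gave -0.85.

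Receptors for cytokines changed both ways. Of 21 measured, 6 (28.6%) were higher (3 without background correction) and 6 (28.6%) lower (median -0.1), against 13.3% and 10.5% of all genes. Il2ra, the high-affinity subunit of the interleukin 2 receptor, read 4.44, 4.39, 4.83, 5.25 and 4.26 on naive arrays and 9.84, 9.36, 9.43, 9.65 and 9.42 on Teff arrays. It was above background on 1 naive array (naive 12) and bright on all 5 Teff arrays, a difference of 4.91 (standard error 0.18, adjusted p = 3.18e-12). Il12rb2, the signalling subunit of the interleukin 12 receptor, rose by 4.74 and Il10ra by 2.85. Receptors that fell were Il4ra (-2.39) and Ifngr2 (-2.17), a subunit of the interferon-gamma receptor. Il7r, the receptor for the survival cytokine interleukin 7, had a difference of -0.94 (adjusted p = 0.00441), which missed the 2-fold minimum; its groups did not overlap, with 12.22 to 13.13 on naive and 11.43 to 12.05 on Teff arrays. Among 17 genes of JAK-STAT signalling and its feedback, 3 (17.6%) were higher and 2 (11.8%) lower, near the 13.3% and 10.5% of all genes. The feedback inhibitors Cish and Socs2, both targets of STAT5, rose by 3.23 and 2.68, while Socs3, a target of STAT3, fell by 2.58. Jak1 fell by 1.77 and Stat3 rose by 1.05, and for both the groups overlapped.

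Of 15 co-stimulatory receptors, 4 (26.7%) were higher and 5 (33.3%) lower (3 without background correction), against 13.3% and 10.5% of all genes. Receptors of the tumour necrosis factor family that mark activation rose furthest. Tnfrsf4 (OX40) read between 6.7 and 7.33 on naive arrays and between 11.78 and 12.82 on Teff arrays, which is 38-fold higher (difference 5.25, adjusted p = 4.34e-10). Tnfrsf9 (4-1BB) rose by 5.16 and Tnfrsf18 (GITR) by 3.55, while Tnfrsf25, a death-domain receptor of the same family, fell by 2.78. Slamf6, a homophilic receptor of the SLAM family, fell by 3.16; other probes of it gave -0.15 and -2.84. Among 13 co-inhibitory receptors 5 (38.5%) rose (3 without background correction) and 2 (15.4%) fell. Lag3, which binds MHC class II and restrains T cells, read 5.04, 4.32, 5.2, 4.28 and 4.21 on naive and 11.21, 11.25, 10.79, 11.65 and 11.82 on Teff arrays. The groups did not overlap and differed by 6.73 (standard error 0.67, adjusted p = 2.46e-07). Cd200 rose by 3.13, Ctla4, a competitor of CD28, by 1.83, and Havcr2 (TIM-3) by 1.33, from background on 4 naive arrays. Vsir (VISTA), a checkpoint known for keeping naive T cells quiescent, fell by 2.08 and Btla by 1.21. Pdcd1, which codes for PD-1, was above background on 2 naive and 3 Teff arrays, and its difference of 0.21 was not called (adjusted p = 0.387).

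Transcription factors of T-cell fate changed in both directions, with 6 of 23 (26.1%) higher and 5 (21.7%) lower, against 13.3% and 10.5% of all genes. Batf3, an AP-1 family factor best known for cross-presenting dendritic cells, read 4.19 to 4.57 on naive arrays, background on all 5, and 9.06, 8.87, 8.69, 9.03 and 9.8 on Teff arrays. This is at least 19.4-fold higher in Teff (difference 4.66, adjusted p = 4.61e-12), and a second probe of Batf3 gave 3.09. Bhlhe40, which sustains cytokine production, rose by 4.55, Irf8 by 3.79 and Irf4, which scales with the strength of the T-cell receptor signal, by 2.03. Tbx21 (T-bet), the factor that drives effector differentiation, rose by 1.36, while its relative Eomes, linked to memory, fell by 2.24. Hif1a, the oxygen-regulated factor, rose by 1.62. Eomes lay at 5.91 to 7.72 on naive arrays and was above background on 1 of 5 Teff arrays. Bcl6, a transcriptional repressor that promotes follicular helper and memory programs, fell by 2.08. Id2 (0.06), Id3 (0.01) and Batf (0.13) were not called, with groups that overlapped. Of 13 chromatin silencing genes 5 (38.5%) rose and 2 (15.4%) fell. Ezh2, the methyltransferase of the Polycomb complex, rose by 2.97 and Uhrf1, which guides maintenance DNA methylation, by 2.78. The demethylase genes Kdm6b and Tet3 fell by 2.29 and 1.47. Other probes of Kdm6b gave -0.91 and 0.11.

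Cytokines and chemokines rose more often than they fell: 8 of 20 measured were higher (5 without background correction) and 1 lower. Ifng, which codes for interferon gamma, read 5.79, 6.23, 5.12, 5.37 and 4.86 on naive and 7.8, 7.89, 7.77, 7.47 and 7.3 on Teff arrays. Every Teff array lay above every naive array, and the difference was 2.17 (standard error 0.3, adjusted p = 1.15e-05). Xcl1, a chemokine that attracts cross-presenting dendritic cells, rose by 4.36, Tnfsf14 (LIGHT) by 2.39 (other probes 0 and 1.72) and Mif by 1.75. The 1 gene that fell was Ccl5, a chemokine abundant in memory CD8 T cells. It read 11.08, 10.85, 10.74, 10.98 and 10.99 on naive arrays and 7.13, 7.52, 7.02, 7.5 and 6.51 on Teff arrays, a fall by 3.79 (adjusted p = 2.5e-09). Genes of cytotoxic granules and killing were higher for 6 of 17 (35.3%) and lower for 1 (5.88%), against 13.3% and 10.5% of all genes. Stx11, a syntaxin needed for granule release, rose by 5 (second probe 1.13), Serpinb6b, a serpin of cytotoxic cells, by 3.07, Fasl, the ligand of the death receptor Fas, by 2.77 and Rab27a, which docks granules, by 1.54. Prf1, the pore-forming perforin, rose by 1.44 from a level of 9.21 to 10.65 in naive cells; a second probe gave -0.41. Gzmm fell and was at least 4.38-fold lower. The probe of Gzmb, the main granzyme of effector cells, was not above background on any array and was not tested.

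NK-type receptors were higher for 3 of 12 (25%) and lower for 1 (8.33%), against 13.3% and 10.5% of all genes. Klrk1 (NKG2D) rose by 3.79, Klri2 by 2.7 and Klrc1 by 1.79, and the adaptor Fcer1g fell by 2.27. Fcer1g read 7.99 on naive 1 and 8.17 on naive 11 against 5.3 to 6.28 on the other naive arrays. Without naive 1 and naive 11, the naive arrays highest in macrophage markers, its call was lost. Klrg1, a marker of terminal effector cells, was not above background on any of these 10 arrays. Adhesion and homing genes rose for 3 of 20 (15%) and fell for 4 (20%), against 13.3% and 10.5% of all genes. Cd44, the hyaluronan receptor by which antigen-experienced T cells are told from naive ones, rose by 2.32, with readings of 6.44 to 7.12 on naive and 8.59 to 9.63 on Teff arrays, and the chemokine receptor Cxcr6 rose by 1.81 with overlapping groups. Among 4 other probes of Cd44 the differences ran from -0.29 to 2.92. Itgae (CD103), the integrin subunit that binds E-cadherin, fell by 3.29 and Ly6c1 by 2.94. Of 16 genes of S100 proteins, annexins, galectins and associated cytoskeletal proteins, which rise in T cells after activation, 10 were higher and 0 lower (median 1.34). Lgals3 rose by 4.64, Capg by 4, Anxa2 by 3.77 and Anxa4 by 3.24.

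Quiescence genes and genes typical of naive T cells fell: of 17 measured 13 were lower and 0 higher, with a median of -1.9. Klf2, the factor that keeps T cells quiescent and in circulation, read 13.49, 13.31, 13.33, 13.45 and 13.31 on naive arrays and 8.12, 8.41, 7.87, 8.19 and 6.13 on Teff arrays. The naive readings had an SD of 0.09 (n = 5), and Teff arrays were 49.7-fold lower (difference -5.64, adjusted p = 3.1e-09). Klf3, a related factor, was not above background on any Teff array and was at least 11.5-fold lower. Il6ra fell by 3.68, Igfbp4 by 3.35 and Il6st, the shared receptor subunit gp130, by 3.12. Lef1, a partner of beta-catenin in naive and memory cells, fell by 2.06 and Ccr7, the lymph node homing receptor, by 1.27. The call of Ccr7 was lost without naive 1 and naive 11, the naive arrays highest in macrophage markers. No member with a difference above 0 was found in this list, and the 4 uncalled members lay between -1.05 and -0.45. Among 17 genes of the T-cell receptor complex 3 (17.6%) fell and 1 (5.88%) rose, against 10.5% and 13.3% of all genes. The adaptor Trat1 fell by 3.07, Cd6 by 1.22 and the adaptor Lat by 1.06. Themis rose by 1.36, with other probes of Themis at 0.38 and -0.18 and of Lat at -0.01. Of 7 Gimap GTPases, which support survival of resting lymphocytes, Gimap6 (-2.27) and Gimap5 (-1.23) fell and Gimap7 (1.58) rose. Ddit4, an inhibitor of mTOR that stress and hypoxia induce, rose by 5.96, and was the 1 of 15 PI3K and mTOR regulators (6.67%) that did. Sesn1 (-1.46) and Rictor (-1.17) fell, which is 13.3% of that list against 10.5% of all genes.

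Immediate early genes, which respond to receptor signals within minutes, were lower in Teff for 22 of 31 and higher for 3, with a median of -1.61. Fos read 12.36, 12.39, 12.27, 11.52 and 11.44 on naive arrays and 8.83, 8.44, 8.43, 8.29 and 5.28 on Teff arrays. Teff 17 lay below the other Teff arrays, and the difference was -4.14 (standard error 0.71, adjusted p = 0.000118). The phosphatase Dusp10 fell by 4.24, Fosb fell by 4.02 and Dusp1 fell by 3.46. Cd69, the early activation marker that holds T cells in lymphoid tissue, was bright in both groups and fell by 1.38, from 11.73 to 12.95 in naive to 10.71 to 11.45 in Teff cells. Ier3 (4.51) and Dusp4 (2.08) rose, together with Atf3 (1.63). The list mean was lowest on naive 13 among naive arrays, at -0.514 against up to 0.296, and lowest on Teff 17 among Teff arrays, at -1.641 against up to -1.209; these are the arrays with the male pattern. Fos was also lower in Teff than in memory cells (-2.25, adjusted p = 0.0357), and its difference from Tpm was not called (-1.29, adjusted p = 0.229).

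**Figure D2:**
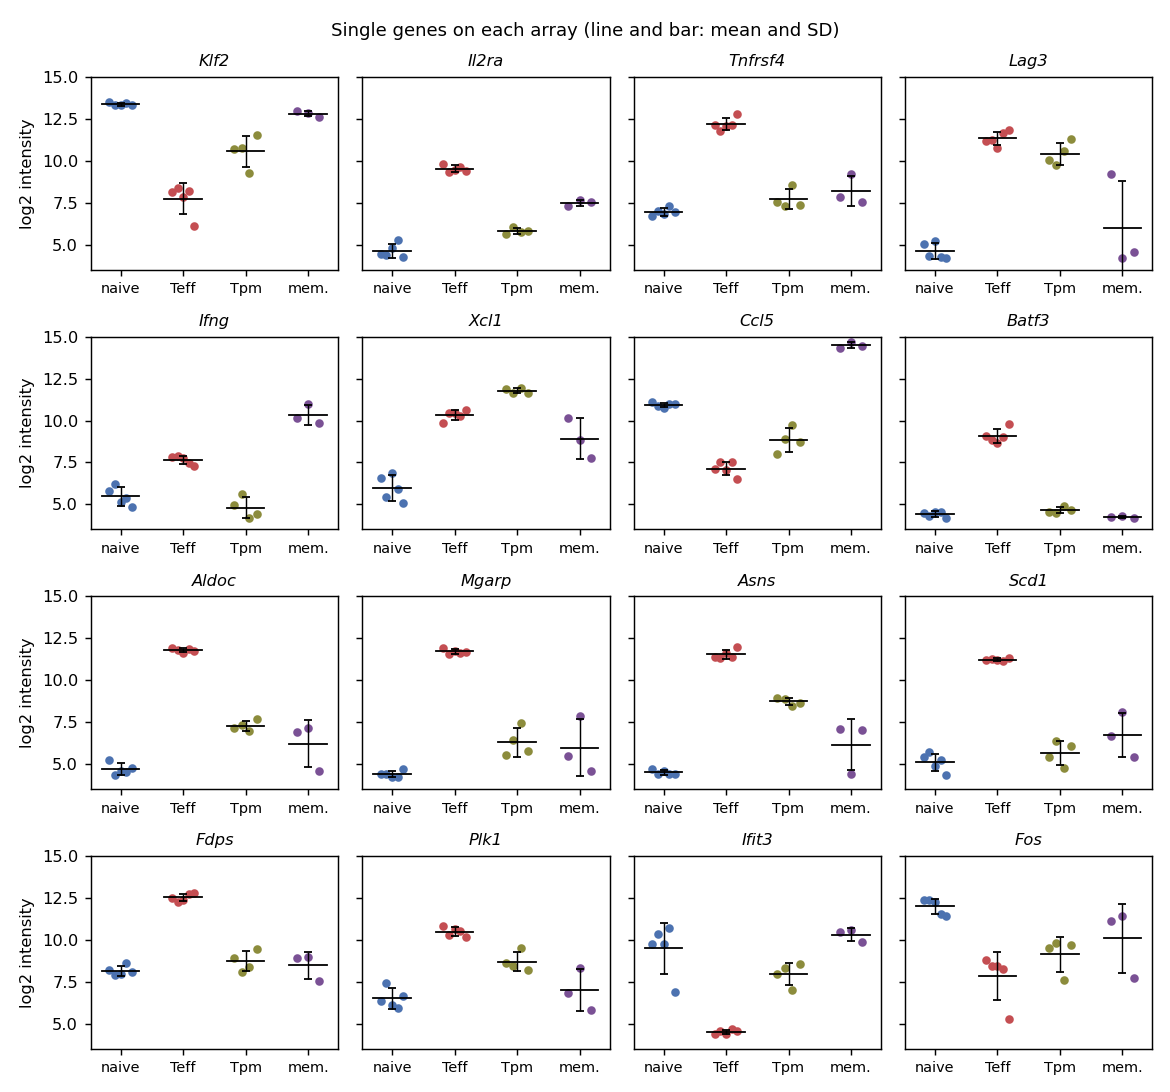
Level of 16 genes (vertical axis, log2 intensity) on each array of the 4 groups; 1 point per array, with a line at the group mean and a bar of 1 SD. The naive (n = 5) and Teff (n = 5) arrays do not overlap for any of these genes, as for 4027 of the 10619 genes tested. Teff 17 lies lowest of its group for Klf2 (6.13) and Fos (5.28).

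Glycolysis rose almost as a whole. Of 17 measured genes of glucose uptake, glycolysis and lactate output 16 were higher and 0 lower, with a median of 2.76, and the same 16 were also higher in Teff than in Tpm and in memory cells. Among all genes higher in Teff than in naive cells, 43.6% were also higher than in both, which is the background for the lists below too. Slc2a1 (GLUT1), the glucose transporter, rose by 2.01 from a level of 9.5 to 10.01. Along the pathway, the phosphofructokinase Pfkp rose by 3.74, the aldolase Aldoa by 3.66, the triose phosphate isomerase Tpi1 by 4.56 and the mutase Pgam1 by 3.77. Tpi1 read 9.02 to 9.52 on naive and 13.76 to 13.95 on Teff arrays. Ldha, which turns pyruvate to lactate, rose by 2.1 (adjusted p = 4.32e-08). The largest rise was that of Aldoc, an aldolase best known from brain, which read 5.26, 4.35, 4.58, 4.54 and 4.78 on naive and 11.91, 11.82, 11.63, 11.85 and 11.72 on Teff arrays (difference 7.09, standard error 0.35, adjusted p = 6.83e-11). A second probe of Aldoc gave 0.63, and other probes of Tpi1 gave 0.49 and 4.85. Slc16a3, a lactate exporter and the 1 member not called, had a difference of 0.89.

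Genes known to respond to low oxygen through the factor HIF-1 rose as well: of 18 measured 12 were higher and 0 lower (median 3.23), and all 12 were also higher than in Tpm and in memory cells. Mgarp, a mitochondrial protein, read 4.39, 4.42, 4.24, 4.24 and 4.7 on naive arrays, background on each, and 11.95, 11.58, 11.74, 11.63 and 11.71 on Teff arrays. It was at least 120-fold higher (adjusted p = 9.38e-10). Vegfa, the vascular growth factor, rose by 5.3, Egln3, an oxygen sensor that marks HIF for decay, by 5.13, P4ha2, a collagen prolyl hydroxylase, by 4.9 and Ndrg1 by 4.15. Second probes gave 3.09 for Vegfa and 3.69 for P4ha2, and those of Egln3 0.75 and 1.83. The core of the hypoxia response element, ACGTG on either strand, stood in 12 of 24 promoters of measured hypoxia genes (50%) and in 13 of 26 of glycolysis genes (50%). It stood in 19.6% of all 32851 promoters of the table and in 25.7% of those of genes tested. Other lists held it often too, with 50% of promoters of aminoacyl-tRNA synthetases and 42.9% of immediate early genes. The shares were 40.9% for G1 genes and 39.1% for tricarboxylic acid cycle genes. Promoters here are the 250 bases before and 50 bases after a gene's start in RefSeq (build GRCm38.p6). Matches are descriptions of the sequence, with no measurement of binding. Measured members were counted whether called or not, and a gene with several starts was counted more than once. The 24 hypoxia promoters belong to 16 genes and the 26 glycolysis promoters to 16. Where a list, here or below, holds known targets of a factor, a high share of its site was largely set beforehand and says nothing about Teff. Stretches of the promoters of Mgarp (chr3:51396735-51396794, minus strand) and P4ha2 (chr11:54100841-54100943, plus strand) are shown because these genes stood furthest above all 3 other groups among hypoxia genes, with the match in capitals.
Mgarp: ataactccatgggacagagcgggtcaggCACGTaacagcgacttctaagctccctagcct
P4ha2: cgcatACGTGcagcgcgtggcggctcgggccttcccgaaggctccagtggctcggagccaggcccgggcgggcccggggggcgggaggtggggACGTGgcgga

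Further energy pathways moved less. Of 19 genes of the tricarboxylic acid cycle and citrate export 6 were higher and 0 lower (median 0.49), led by the cytosolic dehydrogenase Idh1 (2.6) and the citrate carrier Slc25a1 (2.38), with Me2 (1.69), Fh1 (1.57) and citrate synthase Cs (1.11). Of 22 respiratory chain genes 3 were higher, Cox5a (1.29), Ndufb6 (1.18) and Ndufv2 (1.04), which is 13.6% of the list against 13.3% of all genes. Fatty acid oxidation had 7 of 19 higher (3 without background correction), among them Acadl (2.6) and Cpt2 (2.15), and 1 lower, Hadha (-1.45).

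Cholesterol synthesis was higher at 15 of 18 measured genes and lower at 0, with a median of 2.31, and 14 of the 15 were also higher than in Tpm and memory cells. Fdps, which makes farnesyl diphosphate, read 8.18, 7.89, 7.96, 8.6 and 8.07 on naive and 12.53, 12.27, 12.4, 12.72 and 12.79 on Teff arrays. The groups lay 21.1-fold apart (difference 4.4, standard error 0.28, adjusted p = 1.42e-09). Downstream, the epoxidase Sqle rose by 4.06, the cyclase Lss by 3.65, the demethylase Cyp51 by 3.73 and the oxidase Msmo1 by 3.9. Second probes of Fdps and Lss gave 0.1 and 0.01. Fatty acid synthesis had 6 of 15 higher and 0 lower. The rises were concentrated in desaturases: Scd1 read 5.42, 5.69, 4.87, 5.22 and 4.37 on naive and 11.19, 11.28, 11.23, 11.12 and 11.32 on Teff arrays (difference 6.11, adjusted p = 1.42e-09), Scd2 rose by 4.07 and Fads1 by 2.47, and Fads2 was at least 2.64-fold higher. Acsl6, which activates long-chain fatty acids, was at least 9.33-fold higher, with a second probe at 2.84. The letters CCAAT, bound by the factor NF-Y that acts with SREBP at sterol genes, stood on either strand in 15 of 18 promoters of cholesterol genes (83.3%), in 37.4% of all promoters and in 37.8% of those of genes tested. It was also frequent in other lists, with 81.2% of promoters of ER chaperone genes, 73.1% of mitosis genes, 70% of synthetases and 69.6% of tricarboxylic acid cycle genes. The longer letters TCACCCCAC, a sterol response element, stood in 0 of these 18 and in 0.55% of all. Shown for their CCAAT letters are Msmo1 (chr8:64733624-64733743, minus strand), which held 3, and Cyp51 (chr5:4104695-4104754, minus strand).
Msmo1: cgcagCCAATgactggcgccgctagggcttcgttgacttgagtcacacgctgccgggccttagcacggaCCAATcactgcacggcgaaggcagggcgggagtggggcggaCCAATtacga
Cyp51: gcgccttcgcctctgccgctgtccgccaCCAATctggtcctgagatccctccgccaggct

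**Figure D3:**
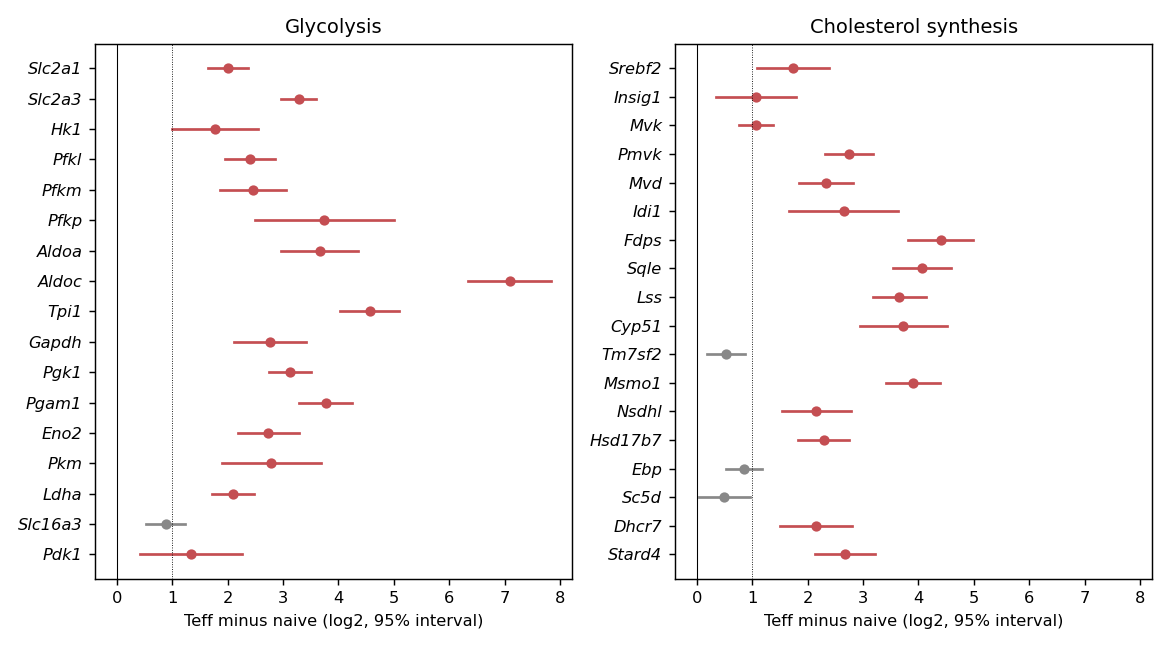
Difference of Teff minus naive (horizontal axis, log2) for the measured genes of glycolysis and of cholesterol synthesis, in pathway order; points are estimates and lines the 95% intervals of the fit, red where called. In glycolysis 16 of 17 and in cholesterol synthesis 15 of 18 genes are called, from 1.07 for Mvk and Insig1 up to 7.09 for Aldoc.

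Of 23 genes of amino acid transport, the amino acid stress response and one-carbon metabolism 12 were higher, 1 lower and 10 not called (median 1.38), and 10 of the 12 were also higher than in Tpm and memory cells. Asns, which makes asparagine and is a classical target of the stress factor ATF4, read 4.71, 4.42, 4.59, 4.42 and 4.38 on naive and 11.39, 11.35, 11.65, 11.4 and 12 on Teff arrays. The difference was 7.05 (standard error 0.36, adjusted p = 1.03e-10), and other probes gave 2.71 and 4.99. Chac1, which degrades glutathione, was at least 11.1-fold higher, and Trib3, a pseudokinase that feeds back on ATF4, rose by 3.08, with other probes at 0.77 and 0.46. Slc7a3, a cationic amino acid transporter, rose by 3.44, with a second probe at -0.21, and Psat1 of serine synthesis by 3.04. The glutamine transporter Slc38a2 fell by 1.67. Atf4 itself was not called (-0.26). Aminoacyl-tRNA synthetases were higher for 6 of 17, with Aars (1.68), Mars1 (1.6), Iars (1.51) and Vars (1.34), and lower for Hars (-1.19), whose groups overlapped. The unfolded protein response moved little, with 1 of 19 (5.26%) higher, Sdf2l1 (1.99), and 1 (5.26%) lower, Dnajb9 (-3.34). Both shares lay below the 13.3% and 10.5% of all genes. The letters TGATGNAA, the composite site of ATF4 with C/EBP factors, stood on either strand in 5 of 23 promoters of the amino acid list (21.7%) and in 5 of 10 of the synthetases (50%). They stood in 3.97% of all promoters and in 2.45% of those of genes tested, and also in 2 of 10 promoters of NK-type receptors (20%). Asns (chr6:7693199-7693258, minus strand), Chac1 (chr2:119351023-119351082, plus strand) and Trib3 (chr2:152344013-152344072, minus strand) are shown, with the site in capitals.
Asns: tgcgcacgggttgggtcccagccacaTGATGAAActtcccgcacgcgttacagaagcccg
Chac1: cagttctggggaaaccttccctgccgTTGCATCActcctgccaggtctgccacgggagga
Trib3: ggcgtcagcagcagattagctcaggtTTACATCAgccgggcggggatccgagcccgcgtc

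Myc, the factor that drives T-cell growth after activation, rose by 1.67, with 4.3 to 5.04 on naive and 5.95 to 6.74 on Teff arrays. It was above background on 2 naive arrays, and its call was lost without background correction and with an offset of 50. Of the 25 genes listed with it, mostly of ribosome biogenesis, 2 (8%) were higher and 3 (12%) lower, against 13.3% and 10.5% of all genes, and the median was -0.43. Besides Myc, Nhp2 rose by 1.02, with a second probe at -0.05, and Rrp12 (-1.18), Wdr43 (-1.02) and Rrp9 (-1.01) fell. Of 24 nucleotide synthesis genes 9 were higher (5 without background correction) and 0 lower. Adssl1, an enzyme of AMP synthesis, rose by 5.09, the thymidine kinase Tk1 by 4.31, the ribonucleotide reductase subunits Rrm1 and Rrm2 by 2.48 and 2.17, and the thymidylate synthase Tyms by 2.42. Ampd1, which turns AMP to IMP, fell by 4.8. The proteasome had 1 of 22 genes (4.55%) higher, Psmb7 (1.18, with overlapping groups), and 0 lower, against 13.3% and 10.5% of all genes.

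Of 28 genes of mitosis and the spindle 27 were higher and 0 lower, with a median of 3.49 and 1 uncalled member at -0.66, and the same 27 were also higher than in Tpm and in memory cells. Plk1, a kinase of mitotic entry, read 6.38, 7.45, 6.1, 5.92 and 6.68 on naive and 10.84, 10.32, 10.65, 10.51 and 10.15 on Teff arrays (difference 3.99, standard error 0.38, adjusted p = 1.7e-07). Aurkb, a kinase of chromosome segregation, rose by 4.9, the spindle factor Tpx2 by 4.39, the kinase Cdk1 by 4.14, Nusap1 by 3.93 and the topoisomerase Top2a by 3.76. DNA replication had 30 of 38 higher and 0 lower (median 1.44): Mcm10 rose by 4.19, Cdc45 by 3.4, the chromatin assembly factor Chaf1a by 3.08, Gins2 by 3.02 and the ligase Lig1 by 2.88. DNA damage and repair had 13 of 17 higher (7 without background correction) and 0 lower, with Rad54l (3.26), Fancd2 (3.03) and Tipin (2.18). Of 24 genes of G1 control 8 (33.3%) were higher (5 without background correction) and 0 lower. Among them were the activator E2f1 (2.44), Cdk4 (1.85) and the cyclin Ccne2 (1.4). Cdkn1a (p21), an inhibitor of cyclin-dependent kinases, rose furthest in that list, by 3.75, from 4.52 to 6.46 in naive to 8.92 to 10.29 in Teff cells.

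The promoters of these lists differed in their letters. TTTGAA, the cell cycle homology region of mitotic genes, stood on either strand in 22 of 26 promoters of mitosis genes (84.6%), in 17.9% of all promoters and in 11.9% of those of genes tested. The E2F sites TTTCCCGC or TTTGGCGC stood in 10 of 36 promoters of replication genes (27.8%), in 0 of the 26 of mitosis genes, in 1.56% of all promoters and in 2.84% of those of genes tested. They also stood in 4 of 15 promoters of DNA damage genes (26.7%). Plk1 (chr7:122159416-122159475, plus strand) is shown with CCAAT and TTTGAA in capitals and Cdk1 (chr10:69352917-69352988, minus strand) with 2 TTTGAA. Mcm3 (chr1:20820263-20820322, minus strand), a helicase subunit that rose by 2.01 and was chosen after its values were seen, and Ezh2 (chr6:47594994-47595053, minus strand) are shown with E2F sites.
Plk1: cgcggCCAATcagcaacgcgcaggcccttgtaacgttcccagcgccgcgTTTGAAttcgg
Cdk1: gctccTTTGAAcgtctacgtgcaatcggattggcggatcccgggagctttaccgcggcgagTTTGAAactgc
Mcm3: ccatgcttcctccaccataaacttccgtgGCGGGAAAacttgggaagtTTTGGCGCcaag
Ezh2: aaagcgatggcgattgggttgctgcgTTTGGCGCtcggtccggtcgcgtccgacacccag

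Genes of the type I interferon response were lower in Teff for 17 of 24 and higher for 0, with a median of -1.48 (9 of 24 without background correction), and 9 of the 17 were also lower than in Tpm and in memory cells. Among all genes lower in Teff than in naive cells, 23.2% were also lower than in both. Ifit3, an antiviral protein that interferon induces strongly, read 9.78, 10.37, 9.76, 10.7 and 6.88 on naive arrays and 4.38, 4.58, 4.37, 4.67 and 4.54 on Teff arrays, where it was at background. Naive 13 lay below the other naive arrays but above all Teff arrays, and Ifit3 was at least 26.6-fold lower in Teff (adjusted p = 3.9e-07). Oasl2 was at least 14.9-fold, Rsad2 (viperin) at least 10.5-fold and Oas2 at least 5.62-fold lower, and Irf7, the factor that amplifies the response, fell by 3.51. The list mean lay between 0.04 and 0.476 on naive 1, 2, 11 and 12, at -1.011 on naive 13, and between -1.778 and -1.619 on Teff arrays. The largest fall among genes above background on at least 1 array of each group was that of Ifi213, of the interferon-inducible p200 family of DNA sensors, which read 11.35 to 12.26 on naive and 5.11 to 5.66 on Teff arrays (difference -6.39, standard error 0.18, adjusted p = 1.6e-13). Its relative Ifi214 fell by 3.53. Second probes gave -1.39 for Ifit3 and -0.48 for Oasl2. In the interferon-gamma response the shares called were close to those of all genes tested (13.3% and 10.5%): 3 of 19 (15.8%) were higher, the antigen-processing genes Psmb8 (1.57), Psmb9 (1.46) and Tap1 (1.29), and 2 (10.5%) lower, Cd74 (-2.48, with overlapping groups) and Gbp7 (-1.16). The core of the interferon-stimulated response element, TTCNNTTTC on either strand, stood in 10 of 21 promoters of the type I list (47.6%), in 8.56% of all promoters and in 7.19% of those of genes tested. It also stood in 10 of 18 promoters of the interferon-gamma list (55.6%). Ifit3 (chr19:34583369-34583440, plus strand), which held 3, and Rsad2 (chr12:26456538-26456597, minus strand) are shown.
Ifit3: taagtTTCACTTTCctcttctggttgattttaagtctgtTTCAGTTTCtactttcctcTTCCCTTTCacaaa
Rsad2: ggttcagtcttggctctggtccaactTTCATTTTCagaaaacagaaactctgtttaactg

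**Figure D4:**
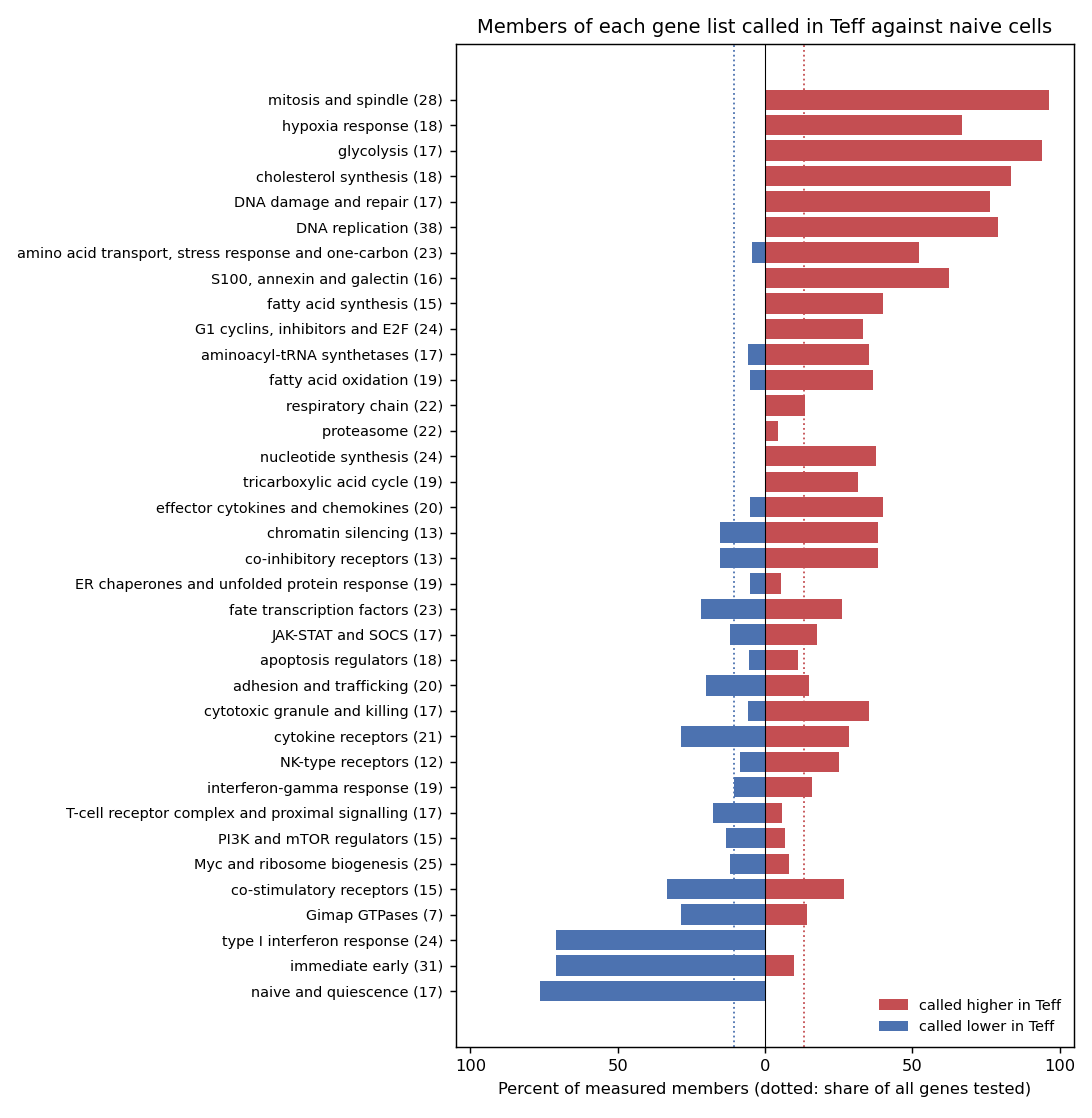
Share of the measured members of each gene list (number in parentheses) called higher (right, red) or lower (left, blue) in Teff than in naive cells, in percent, ordered by the list median. Dotted lines mark the shares of all genes tested, 13.3% and 10.5%; the mitosis and glycolysis lists reach furthest right and the quiescence, immediate early and type I interferon lists furthest left.

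Among survival genes 2 of 18 (11.1%) were higher and 1 (5.56%) lower, against 13.3% and 10.5% of all genes. Bcl2a1b (1.77) and Bcl2a1d (1.7), near-identical copies of an anti-apoptotic gene whose signals the probes may share, rose, and the pro-apoptotic Bcl2l11 (BIM) fell by 1.54. Other large falls were those of Cd163l1 (-5.19), a scavenger receptor known from gamma-delta T cells, the LIM protein Pdlim4 (-4.35), the alpha-actinin Actn2 (-4.3), the neonatal Fc receptor Fcgrt (-4.15) and the ubiquitin ligase Rnf144a (-4.11). One probe of Actn2 gave -0.06 and another -3.67.

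Markers of other cells lay unevenly on the naive arrays, and in RNA of bulk samples fewer cells of a type and less RNA per cell cannot be told apart. Haemoglobin genes, the defining genes of red cells, read 10.68 to 13.75 on naive arrays and were not above background on any Teff array: Hbb-bs was at least 192-fold, Hbb-bt at least 158-fold and Hba-a1 at least 117-fold lower. Further probes gave differences from -7.42 to -6.51 for Hbb-bs and from -6.99 to -4.53 for Hbb-bt. All 5 measured erythroid genes were lower in Teff. Of 13 macrophage and monocyte markers 5 were lower, among them Lyz1 (-3.42), Mpeg1 (-3.18) and Csf1r (-1.77). The mean of this list was 0.887 on naive 1 and 1.127 on naive 11, between -0.815 and -0.488 on the other 3 naive arrays and between -1.525 and -1.357 on Teff arrays. Without naive 1 and naive 11, Lyz1 and Mpeg1 alone of the 13 were called. The count was 1 without background correction and 8 without Tpm 14, with median scaling, with array weights or with the 10 naive and Teff arrays alone. The protease inhibitor Slpi and the iron exporter Slc40a1 followed the same arrays: Slpi (a fall by 4.32) read 10.44 on naive 1 and 10.64 on naive 11 against 7 to 8.45 on the others, and Slc40a1 (at least 17.5-fold lower) 10.6 and 11.07 against 7.44 to 7.79. The part of other cells in these falls was not tested. Of 7 neutrophil markers 3 (42.9%) were lower, with S100a8 and S100a9 at least 6.94-fold and 5.34-fold. S100a8 ran from 5.11 on naive 12 to 9.49 on naive 1. Of B-cell and stromal markers 0 of 5 and 0 of 6 were called.

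Markers of dendritic cells, the partners in the Teff cocultures, did not move together. Of 18 listed, 10 were measured, 3 (30%) higher and 3 (30%) lower, against 13.3% and 10.5% of all genes. Clec9a was not above background on any Teff array, and Siglech fell. The MHC class II genes went apart, with H2-Aa lower by 3.75 and H2-Ab1 higher by 2.38. H2-Aa read 9.74, 9.18, 10.14, 7.62 and 6.54 on naive and 5.18, 5.12, 5.15, 4.54 and 4.47 on Teff arrays, and H2-Ab1 7.06 to 9.74 and 10.61 to 11.4. Without naive 13 the call of H2-Ab1 was lost. Batf3 and Cd83 (2.2) were the other markers that rose. The summed signal of the dendritic cell list lay between 478 and 3490 intensity units on naive and between 2390 and 4070 on Teff arrays, and that of the macrophage list between 290 and 2370 and between 50.1 and 84.9. Of 13 endothelial markers 3 (23.1%) rose, Egfl7 (at least 10.3-fold), Stab1 (3.56) and Igfbp7 (3.11). Pecam1 (7.69% of the list) fell by 1.85 with overlapping groups, while Lyve1, Plvap and Cdh5 were not above background on any Teff array. Other probes of Stab1 gave -0.18 and -0.15, and a second probe of Egfl7 gave 1.48.

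**Figure D5:**
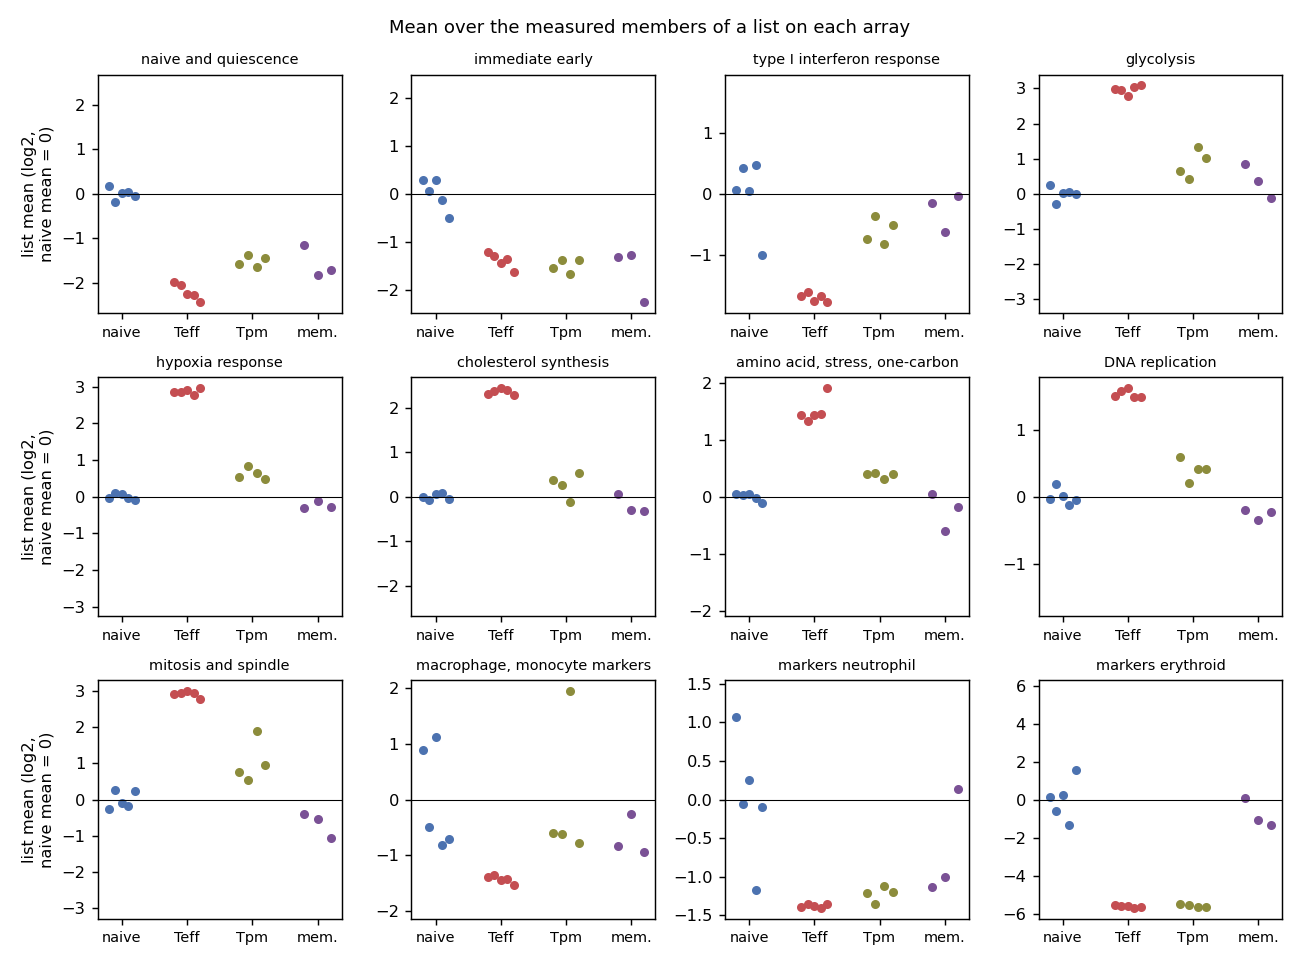
Mean over the measured members of 12 gene lists on each array (vertical axis, log2, with the mean of the naive group set to 0), 1 point per array, for naive, Teff, Tpm and memory cells. The naive and Teff arrays do not overlap in any panel; naive 13 lies at -1.011 for the type I interferon list, and naive 1 and naive 11 lie highest among naive arrays for the macrophage list.

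Which of these differences were particular to Teff among the 4 groups was asked with the contrasts of Teff against Tpm and against memory cells in the same fit. Of the genes higher than in naive cells, 681 were also called higher than in Tpm and 1046 higher than in memory cells, and 617 genes (5.81%) were higher than in all 3 other groups. These 617 were 43.6% of the genes higher than in naive cells. Of the genes lower than in naive cells, 358 were also lower than in Tpm and 534 than in memory cells, and 259 (2.44%) were lower than in all 3. These 259 were 23.2% of the genes lower than in naive cells. On the memory array numbered 5, 5461 genes were above background, fewer than on any other. The 12 genes that stood furthest above all 3 groups, by the smallest of the 3 differences, were led by Mgarp (5.44), Tg (4.9), P4ha2 (4.87), Scd1 (4.5), Aldoc (4.49) and Batf3 (4.44). Ndrg1 (4.15), the lipoprotein receptor Vldlr (4.11), Mt1 (4.08), Tnfrsf4 (4.01), the desmosomal plakophilin Pkp2 (3.84) and Fdps (3.83) followed. These 12 held 3 hypoxia genes, a glycolytic enzyme and 2 enzymes of lipid synthesis. The 12 that stood furthest below were led by Ifi213 (-5.69), Ifi214 (-3.53), Ifit3 (-3.46), Lyz1 (-3.42), Btbd11 (-3.26), Slfn1 (-3.17) and Nod1 (-3.13), and ended with Oasl2 (-2.96), H2-Aa (-2.92), the adhesion molecule Icam2 (-2.84), Klf2 (-2.82) and Fcgrt (-2.69). Of these, Lyz1 and H2-Aa are markers of other cells. On Tpm 14 the macrophage list mean was 1.943, the highest of the 17 arrays. Lyz1 read 13.49 there against 8.41 to 8.47 on the other Tpm arrays, and H2-Aa 10.23 against 5.73 to 7.88. The part of other cells in these 2 differences was not tested.

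Some of the largest rises were shared with Tpm, the other in vitro group. Lag3 differed between Teff and Tpm by 0.93 (adjusted p = 0.373), Kit by 0.66 (adjusted p = 0.508) and Cables1 by 0.5 (adjusted p = 0.397), so that none of these was called between those groups. Xcl1 was lower in Teff than in Tpm by 1.44 (adjusted p = 0.0101). Genes of killing and homing were set against memory cells: Ifng was lower in Teff than in memory cells by 2.69 (adjusted p = 6.75e-06) and higher than in Tpm by 2.85 (adjusted p = 2.93e-06). Ccl5 was lower than in both, by 7.37 (adjusted p = 5.8e-12) against memory cells and by 1.7 (adjusted p = 0.000116) against Tpm. Prf1 was higher than in Tpm by 2.27 (adjusted p = 0.000306) and lower than in memory cells by 1.14 (adjusted p = 0.0452). Tbx21, higher in Teff than in naive cells, was lower than in memory cells by 3.54 (adjusted p = 6.84e-09).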

How the data were processed

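The authors deposited, per the file headers, a table of non-normalized probe intensities for 17 Illumina mouse arrays and a table of processed intensities, which ranks probes identically and has equal quantiles on every array. All sample columns were used. Each array's background was taken from the mode of its signals and the spread below it, corrected by normexp with an offset of 16. Values were quantile normalized across arrays before taking log2. A probe was above background at a one-sided p under 0.01, and the 20002 probes that passed on 3 or more arrays were used. Of the probes, 34885 had 1 gene symbol in the platform annotation, 18 several and 10378 none. A gene was read from its brightest kept probe, which gave 10619 genes. limma 3.58.1 in R 4.3.3 fitted 1 coefficient per group over all 17 arrays, with two-sided tests and Benjamini-Hochberg adjustment over all genes; every adjusted p comes from this fit. The fit and the call rule, but not the steps before them, were tested on simulated log2 values. The number of arrays limits the precision.

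Genes named are the 12 largest differences each way, the 8 largest limits each way, the 5 largest calls of each list with 2 against its median, the 12 furthest from all 3 other groups each way, and a fixed set of T-cell genes. Atf3, Atf4, Insig1, Mvk, Mcm3, Slc16a3 and single markers stand outside this rule and were chosen after their values were seen. Members and lists were chosen with earlier results of these data known. Promoters and their coordinates come from RefSeq (GRCm38.p6). Tcf7, Mki67, Bach2, S1pr1 and Prdm1 were not analysed here.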

Additional observations from a re-analysis of the deposited data

Results flagged for a closer look

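Single arrays that stood apart from the other 4 of their group were sought for each gene named and each list mean, by the gap to the nearest array as a share of the group's range. Of 564 such groups of values 48 were flagged (8.51%), where chance flags about 1 in 20. Teff 17 held 17 of them, naive 2 held 11 and naive 13 held 8.

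Teff 17 and naive 13 were the arrays with the male pattern: Xist read 4.36 on Teff 17 and 4.21 on naive 13, and Eif2s3y 10.98 and 11.12. Teff 17 was further low for Fos (5.28, others 8.29 to 8.83), Klf2 (6.13), Itgae (6.33), Dusp1 (8.41), Id3 (5.77), Hadha (5.69), Sesn1 (8.92) and Adssl1 (10.5). It was high for Slc7a3 (8.59), and for S100a8 (4.55) and Slc40a1 (4.6), both at background. Its list mean was high for amino acid genes (1.9, others 1.33 to 1.45) and synthetases (0.996), and low for the interferon-gamma response (-0.248) and for S100, annexin and galectin genes (1.592). The part of sex or of any other property of this array was not tested.

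Naive 13 was low for Ifit3 (6.88, others 9.76 to 10.7), Irf4 (6.69), Trat1 (8.5), Clec9a (4.28, at background) and the Myc and ribosome list (-0.223), and high for Cdh5 (4.88). Naive 2 was low for Pecam1 (6.21, others 8.65 to 8.79), Pfkp (6.73), Psmb8 (6.4) and Hif1a (5.46), and for Tk1 (4.43) and Acadl (4.48), both at background. It was also low for the means of fatty acid oxidation (-0.186) and of PI3K and mTOR regulators (-0.199). It was high for Vegfa (5.83), Stab1 (6.47) and the G1 list (0.152).

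On naive 11, Plvap (5.02), Igfbp7 (5.11) and Vldlr (4.62, at background) were high and Ifngr2 (8.28) low, and on naive 1 Havcr2 was high (5.33). Teff 6 was high for Themis (10.29), and for Klrg1 (4.6) and S100a9 (4.34), both at background, and low for Psmb8 (9.54). Teff 10 was high for Mcm10 (10.63) and low for the G1 list (0.624), and Teff 16 was high for Il10ra (9.64).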

How the results depend on the processing

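Of 1414 genes higher, 1116 lower, 617 higher than all 3 other groups and 259 lower than all 3, no background correction and the authors' processed values each left 780, 609, 345 and 123, and dropping the minimum difference gave 2429, 2119, 1046 and 732. Leaving out 1 of the 17 arrays at a time gave 1377 to 1447, 1068 to 1139, 576 to 646 and 228 to 289. The authors' processed values and the run without background correction are nearly the same setting. Under the other alternatives run, each count stayed within 1.5 times its value, and no called gene named here changed direction under any of the 31 settings. All settings reuse the arrays that made the calls, and leaving out a Tpm or memory array does not alter the Teff and naive means. The match in direction was therefore largely set beforehand. Median scaling moved the median of all genes to -0.137. Without background correction 24 of the named genes lost their call, among them Myc, Tbx21, Eomes, Havcr2, Klrc1, Gzmm, Fads2, Lyz1 and Csf1r, and the mean of a gene's probes ended those of Prf1, Themis, Lat, Nhp2, Hars and Ndufb6. Of 26 list counts 10 moved by over 1.5 times without background correction: DNA damage 13 to 7, type I interferon 17 to 9, fatty acid oxidation 7 to 3, nucleotide synthesis 9 to 5, effector cytokines and G1 genes 8 to 5, cytokine receptors 6 to 3, co-inhibitory receptors and, for falls, co-stimulatory receptors 5 to 3, and macrophage markers 5 to 1. The count of macrophage markers ran from 1 to 8 over the settings. Without naive 13 and Teff 17, Ctla4, Hif1a, H2-Ab1 and Psmb7 were among 10 genes not called. Without naive 1 and naive 11, Ccr7, Fcer1g, Csf1r and Pecam1 were among 9 that lost their call. The runs without naive 1 and naive 11, without all arrays of male pattern and without single Tpm or memory arrays were chosen after seeing the data. No paired analysis was possible because no sample number is shared by any groups. The chip as a block was not run, since the column names give no chip. Signal over background limits dim genes, for which only bounds are given.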
